A study of Mus musculus with 14 samples.

Results

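Synaptotagmins and Doc2 proteins are the calcium sensors of neurotransmitter and peptide release, and 9 of their genes (Syt1, Syt2, Syt4, Syt5, Syt7, Syt11, Syt12, Doc2a and Doc2b) were followed in cultured dentate gyri that lack the amyloid precursor protein. They were chosen by symbol, as members of the synaptotagmin and Doc2 families, and make up 9 of the 55291 gene symbols that were counted. All 9 had a count in some library, and 8 of the 9 passed the filter on low counts (Doc2a did not). Polyadenylated RNA was sequenced from 8 APPko (APP-/-) and 6 wildtype (C57BL/6J, APP+/+) cultures, and each library held a single dentate gyrus dissected from an organotypic slice in which entorhinal cortex and hippocampus are kept together. Slices of both groups came from pups of postnatal day 4 to 5 and were kept for 18 days or more. The APPko animals carry a gene-targeted allele in every cell and not a dentate-specific deletion. The labels call the libraries biological replicates and do not tell which cultures came from the same animal, so each p-value reflects culture-to-culture spread, which may be technical in part.

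In the textbook account, most synaptotagmins are anchored in a vesicle membrane and carry a pair of C2 domains, which in the calcium-binding members insert into the plasma membrane and act on the SNARE complex when calcium enters the terminal. Syt1, Syt2 and Syt5 bind calcium, and Syt1 and Syt2 drive fast synchronous release. Syt7 and the soluble Doc2 proteins have a higher calcium affinity and serve asynchronous or spontaneous release and short-term facilitation. Syt4 and Syt11 carry a substitution in the calcium-binding site of a C2 domain, and Syt12 does not bind calcium. The axons of dentate granule cells, the mossy fibres, are a standard preparation for studying facilitation and presynaptic plasticity.

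Because the genes are related, their GENCODE M21 transcripts (GRCm38, 48 transcripts of the 9 genes) were searched for sequence that a read could not tell apart. The longest run shared by any of the 36 gene pairs was 36 bases, and 3 pairs shared a coding run of more than 20 bases. All of these runs are shorter than the 151 bases of a read. The windows below show the 2 closest coding stretches, which join Syt1 to its nearest relatives in release, Syt2 and Syt5. The shared run is in capitals and 20 bases of the same transcript stand on each side of it. The Syt1 and Syt2 windows (chr10:108504525-108583933, minus strand, exons 9 to 10 of 11, and chr1:134745788-134746759, plus strand, exons 7 to 8 of 9) share 26 bases in a row and 52 of 66 bases in all.
Syt1: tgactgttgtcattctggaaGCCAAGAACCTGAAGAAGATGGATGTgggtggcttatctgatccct
Syt2: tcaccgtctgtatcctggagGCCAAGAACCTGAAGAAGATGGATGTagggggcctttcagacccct
The Syt1 and Syt5 windows (chr10:108631952-108636603, minus strand, exons 6 to 7 of 11, and chr7:4542879-4543070, minus strand, exons 3 to 4 of 8) share 25 bases in a row and 50 of 65 in all. The coordinates span the intron between the exons named.
Syt1: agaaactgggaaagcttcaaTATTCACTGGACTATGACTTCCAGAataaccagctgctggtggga
Syt5: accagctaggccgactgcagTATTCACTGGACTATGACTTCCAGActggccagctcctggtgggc

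The remaining coding run, of 23 bases, joins the last exons of Syt2 and Syt5. It lies at chr1:134747593-134747655 on the plus strand and chr7:4540118-4540180 on the minus strand with its flanks, and 45 of the 63 bases are identical.
Syt2: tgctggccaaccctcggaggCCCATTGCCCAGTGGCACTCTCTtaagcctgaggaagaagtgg
Syt5: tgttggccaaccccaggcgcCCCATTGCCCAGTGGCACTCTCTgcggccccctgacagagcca
The bases on both sides of each run differ between the genes. How the authors treated reads with more than 1 match is not given in the sources used here.

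Depth ran from 16686909 to 31031126 counts per library. App itself, the check of the labels, averaged 214 ± 17.9 CPM in APPko (counts scaled to TMM library size) and 809 ± 131 CPM in wildtype (SD, n = 8 and 6), with every APPko library below every wildtype library (log2 change -1.92, SE 0.11, edgeR adjusted p = 9.19e-09). The headers of the count columns end in f or m: 7 APPko libraries and 3 wildtype libraries carry f, and 1 APPko library (replicate 8) and 3 wildtype libraries carry m. Xist lay between 85.7 and 208 CPM in the 10 f libraries and between 1.08 and 2.22 CPM in the 4 m libraries. Wildtype replicates 2 and 3 had TMM factors of 0.852 and 0.847, against at least 0.976 in the other 12 libraries. Both carry f and make up 2 of the 3 wildtype f libraries. Fits on the f libraries alone, and contrasts between suffixes within wildtype, therefore rest in large part on this pair. Without these 2 libraries the number of genes called in the whole table was 35 in place of 521.

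Levels of different genes were compared per length, as RPKM (counts scaled to library size and exon length). Syt11 and Syt1 were the most abundant of the 9, and Syt4 followed. Syt11 averaged 105 ± 7.00 RPKM in APPko and 121 ± 19.1 RPKM in wildtype, Syt1 averaged 96.3 ± 4.23 RPKM in APPko and 98.6 ± 14.4 RPKM in wildtype, and Syt4 averaged 64.6 ± 8.83 RPKM in APPko and 86.6 ± 19.7 RPKM in wildtype. These 3 genes made up most of the summed RPKM of the 9. The share of Syt11 was 35.1% in APPko and 35.3% in wildtype, that of Syt1 32.1% in APPko and 28.7% in wildtype, and that of Syt4 21.5% in APPko and 25.2% in wildtype.

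The order below them was Syt5, Syt7, Doc2b, Syt12, Syt2 and Doc2a. Mean RPKM was 20.3 in APPko and 22.8 in wildtype for Syt5, 9.60 in APPko and 10.3 in wildtype for Syt7, and 2.31 in APPko and 2.27 in wildtype for Doc2b. The lowest 3 were Syt12 (1.18 RPKM in APPko and 0.783 RPKM in wildtype), Syt2 (0.213 RPKM in APPko and 0.327 RPKM in wildtype) and Doc2a (0.0651 RPKM in APPko and 0.0293 RPKM in wildtype). Of the 8 pairs of neighbours in this order, 4 kept it in every library. Syt4 was above Syt5, Syt5 above Syt7, Syt7 above Doc2b and Syt12 above Syt2 in 14 of 14 libraries. The neighbours that changed places were Syt11 and Syt1, where Syt11 was the higher in 12 of 14 libraries, Syt1 and Syt4 (13 of 14), Doc2b and Syt12 (12 of 14), and Syt2 and Doc2a (13 of 14). Ranges of the 2 genes overlapped for each of these pairs.

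**Figure D1:**
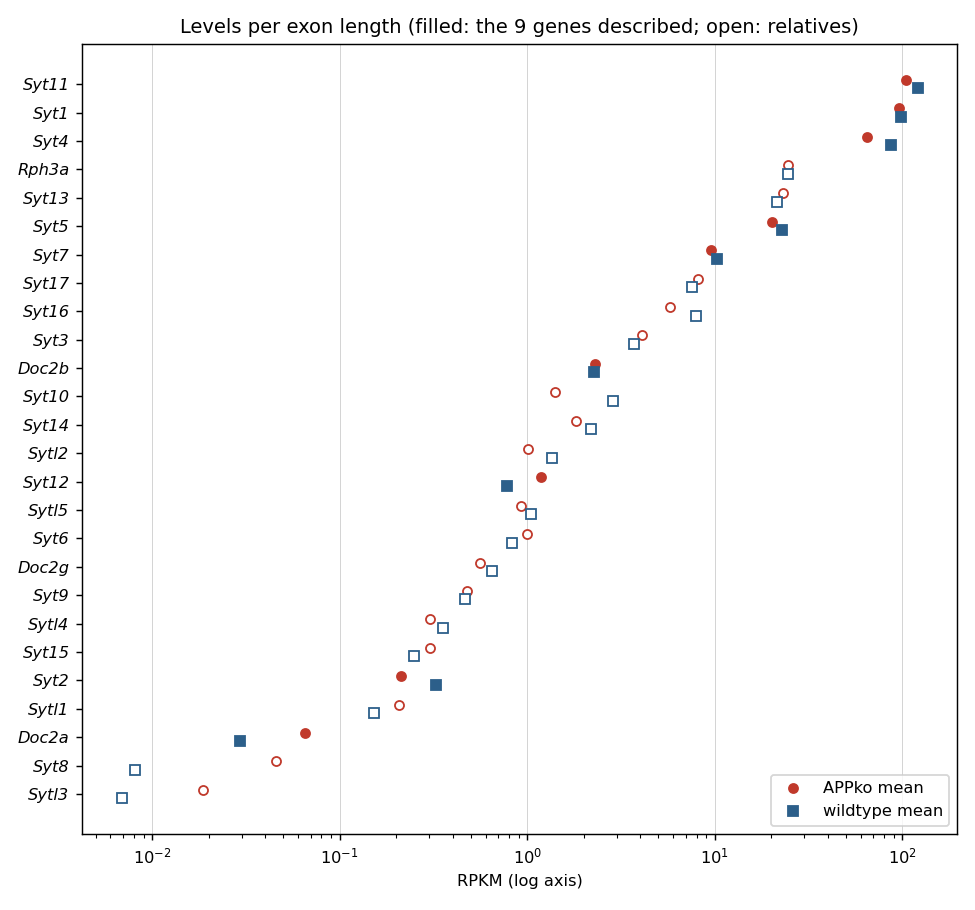
Mean RPKM (log axis) of 26 synaptotagmin, synaptotagmin-like, Doc2 and rabphilin genes in APPko (circles) and wildtype (squares), with the 9 genes described here filled. Syt11, Syt1 and Syt4 stand above all relatives, Syt5 and Syt7 follow near or below Rph3a and Syt13, and Syt2 and Doc2a lie near the bottom.

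Against all 22150 tested genes, the mean RPKM over the 14 libraries placed Syt11 at the 97.8th percentile, Syt1 at the 97.5th and Syt4 at the 96.7th. Syt5 stood at the 89.0th percentile and Syt7 at the 79.1st. Doc2b was at the 50.3rd percentile, Syt12 at the 34.4th and Syt2 at the 13.0th. Among the 17 relatives that were set beside them, those with the highest mean RPKM over all libraries were Rph3a (24.5 RPKM), which encodes rabphilin, a Rab effector with C2 domains, and Syt13 (22.5 RPKM). Both were above Syt5 in that mean, though in wildtype alone Syt5 (22.8 RPKM) was above Syt13 (21.5 RPKM). The plot of levels per exon length also shows Syt9, a further fast sensor, at 0.473 RPKM, close to Syt2.

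The main comparison asked whether dentate gyri without the amyloid precursor protein differ in the transcripts of these sensors. None of the 8 tested genes passed the threshold (edgeR's quasi-likelihood test, Benjamini-Hochberg adjusted p under 0.05 over all tested genes), beside 521 of 22150 genes in the whole table (2.35%, of which 0.944% higher and 1.41% lower in APPko). At an unadjusted p under 0.05 there were 2 of the 8, Syt4 and Syt12, beside 20.4% of all tested genes. DESeq2 called 1 (Syt4) and limma's voom called 0, and edgeR also called 0 without wildtype replicates 2 and 3. DESeq2 also called more genes in the whole table than the main test did. The log2 change was positive for 2 of the 8 genes and negative for 6, with a median of -0.13, beside a median of -0.01 over all tested genes. Without wildtype replicates 2 and 3 the median of the 8 was -0.26, and the log2 change was -0.87 for Syt2, -0.32 for Syt5 and -0.31 for Syt7, none of them past the threshold. None of the 8 had ranges that did not overlap between the genotypes, a pattern seen in 1.12% of all tested genes. In tissue RNA, fewer cells of a type and less RNA per cell cannot be told apart.

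**Figure D2:**
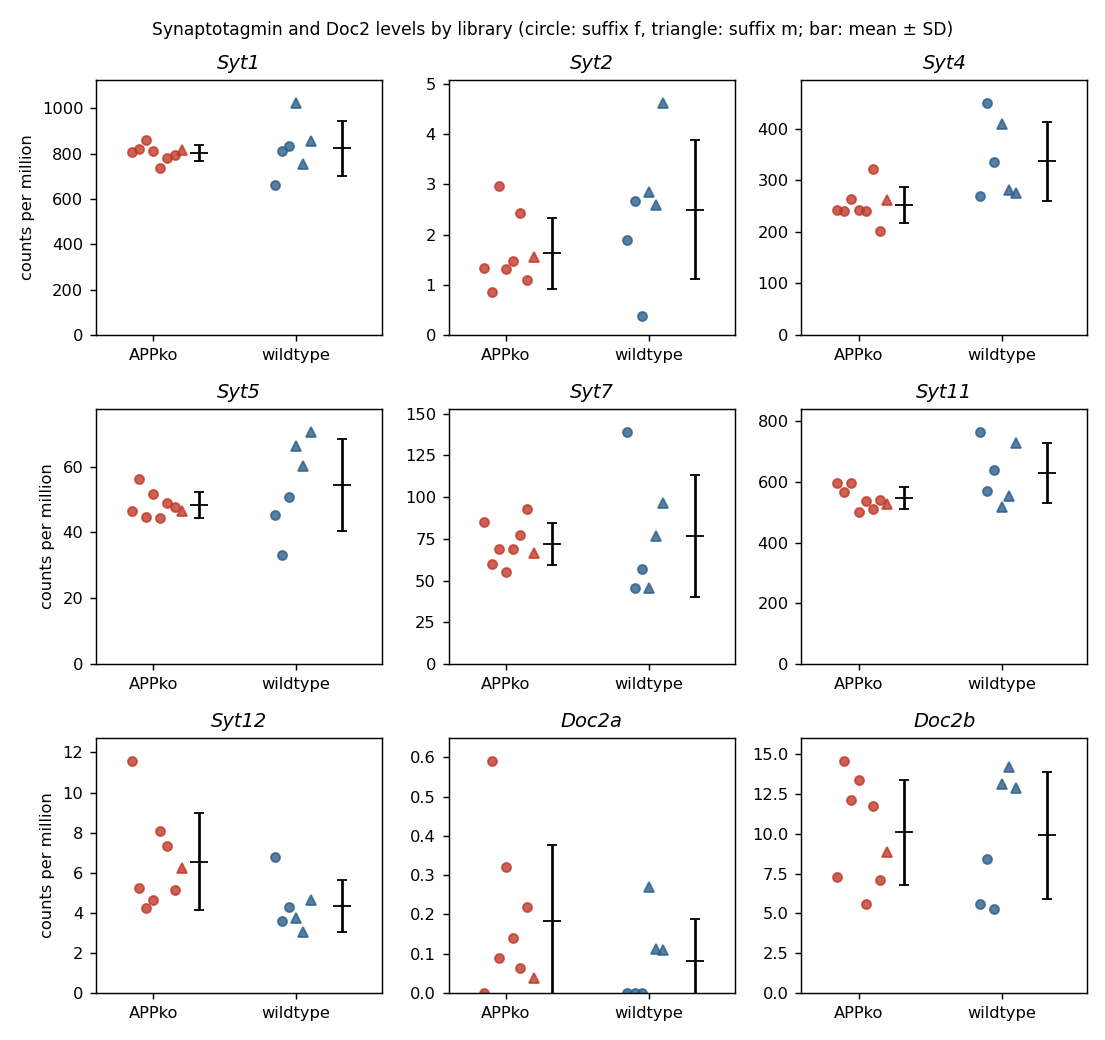
CPM of each of the 9 genes by library, with APPko on the left and wildtype on the right of each panel, 1 point per library (circles for header suffix f, triangles for m) and bars for the mean ± SD (n = 8 APPko and 6 wildtype). The genotypes overlap in every panel, and the wildtype points are more spread than the APPko points for Syt1, Syt5, Syt7 and Syt11.

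Syt1, the main sensor for fast release in forebrain neurons (ENSMUSG00000035864.14, chr10:108497650-109010982, minus strand, GRCm38), was nearly level between the genotypes. Its lowest, median and highest values were 737, 810 and 859 CPM in APPko, and 660, 821 and 1023 CPM in wildtype. All 8 APPko libraries lay inside the wildtype range. Its log2 change was -0.03 (SE 0.10, 95% interval -0.24 to 0.18, edgeR adjusted p = 0.89), which as a fold is an interval of 0.844 to 1.13.

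Syt2, the fast sensor of hindbrain synapses and of parvalbumin interneurons (ENSMUSG00000026452.15, chr1:134646677-134762593, plus strand), was the lowest of the 8 tested genes. Over its libraries it had a lowest, median and highest value of 0.867, 1.41 and 2.97 CPM in APPko, and 0.385, 2.63 and 4.62 CPM in wildtype. The highest and the lowest value were both from wildtype libraries (replicates 6 and 3). The log2 change was -0.61 with a wide interval (SE 0.36, 95% interval -1.38 to 0.15, edgeR adjusted p = 0.36), and it was -0.01 among the f libraries alone. Pvalb, the calcium-binding protein that marks those interneurons, averaged 23.9 ± 7.84 CPM in APPko and 39.7 ± 16.4 CPM in wildtype (log2 change -0.73, edgeR adjusted p = 0.090), and its part in the Syt2 values was not tested. Pvalb had the most negative change of the 9 interneuron markers. Their median log2 change was -0.17, with 8 negative and 1 positive. The RPKM ratio of Syt1 to Syt2 ran from 265 to 867 in APPko (median 518) and from 169 to 1980 in wildtype (median 300).

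Syt5, another calcium-binding member (ENSMUSG00000004961.7, chr7:4539765-4547541, minus strand), was held in a narrow band in APPko. Its lowest, median and highest values were 44.4, 47.1 and 56.3 CPM in APPko, and 33.3, 55.5 and 70.6 CPM in wildtype. 3 of the 6 wildtype libraries were above all APPko libraries and 1 was below them all. Its log2 change was -0.17 (SE 0.13, 95% interval -0.45 to 0.11, edgeR adjusted p = 0.51). It was 0.17 among the f libraries alone and 0.01 with the suffix as a covariate, so its sign turned with the treatment of the suffix.

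Syt7, the high-affinity sensor linked to facilitation and asynchronous release (ENSMUSG00000024743.16, chr19:10389090-10453180, plus strand), is annotated with 15 transcripts, which the counts do not separate. The lowest, median and highest libraries were at 55.2, 69.0 and 92.9 CPM in APPko, and 45.4, 67.0 and 139 CPM in wildtype. All 8 APPko libraries lay inside the wildtype range, whose top value came from wildtype replicate 1. The log2 change was -0.09 (SE 0.21, 95% interval -0.54 to 0.35, edgeR adjusted p = 0.85), and 0.17 without wildtype replicate 1. It was negative in 26 of 27 other settings, with a lowest value of -0.56. The RPKM ratio of Syt1 to Syt7 was 7.66 to 13.2 in APPko (median 10.3) and 4.26 to 20.2 in wildtype (median 11.0), and the APPko range lay inside the wildtype range.

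Doc2b, a soluble C2 protein implicated in spontaneous and asynchronous release (ENSMUSG00000020848.7, chr11:75768966-75796049, minus strand), was also level. Its lowest, median and highest values were 5.57, 10.3 and 14.6 CPM in APPko, and 5.30, 10.6 and 14.2 CPM in wildtype. The ranges were almost the same. Its log2 change was 0.02 (SE 0.25, 95% interval -0.51 to 0.56, edgeR adjusted p = 0.98). Among the f libraries alone it was 0.67 (edgeR adjusted p = 0.13).

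Doc2a, its relative in excitatory terminals (ENSMUSG00000052301.14, chr7:126847416-126852705, plus strand), was counted too seldom to test. It had 39 counts over the 8 APPko libraries, at most 15 in any of them, and 12 counts over the 6 wildtype libraries, at most 8 in any of them. It was at 0 in 1 APPko library and in 3 wildtype libraries, and in those 4 libraries a count of 0 allows a level of up to 0.138 to 0.161 CPM (3 counts per library, counting error only). A stretch of 1103 bases, 39.4% of its 2803 exon bases, is shared with Ino80e on the opposite strand, which had 5.08 to 11.7 CPM in APPko and 3.28 to 11.0 CPM in wildtype. Since the strand setting of the counting is not given in the sources used here, reads of the 2 genes cannot be told apart in that stretch.

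Syt4, a synaptotagmin of dense-core and neurotrophin vesicles (ENSMUSG00000024261.6, chr18:31437808-31447406, minus strand), had the smallest p of the 8. Across libraries the lowest, median and highest values were 201, 242 and 323 CPM in APPko, and 270, 308 and 450 CPM in wildtype. 7 of the 8 APPko libraries lay below every wildtype library, and APPko replicate 6 was the exception. The estimate was 1.34-fold lower in APPko (log2 change -0.42, SE 0.13, 95% interval -0.70 to -0.15), with an unadjusted edgeR p of 0.00476 and an adjusted edgeR p of 0.085, which misses the threshold. DESeq2's adjusted p was 0.0262, and that of edgeR among the f libraries alone was 0.0444 (log2 change -0.49). Both of these settings called several times more genes in the whole table than the main test did, so passing there is a weaker mark. Of the 3 wildtype f libraries, 2 are replicates 2 and 3.

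The Syt4 estimate was smaller where libraries that stand apart were set aside, and where a GC trend was removed with all libraries kept. Without wildtype replicates 2 and 3 the log2 change was -0.29 (edgeR adjusted p = 0.36), and with a trend over transcript GC content removed it was -0.30 (edgeR adjusted p = 0.20). The GC content of Syt4, 40.7%, is the lowest of the 9 genes, whose highest is 60.4% (Doc2a). Over the 13 settings other than leaving out 1 library, the Syt4 log2 change ran from -0.49 to -0.18. The sign was negative in 27 of 27 other settings. The summed level of 7 dentate granule cell markers was 501 to 872 CPM in APPko and 664 to 1262 CPM in wildtype. Calb1, the most abundant of them, averaged 277 ± 89.6 CPM in APPko and 454 ± 184 CPM in wildtype (edgeR adjusted p = 0.14). Prox1 was near level, at 151 CPM in APPko and 158 CPM in wildtype. Among those markers only Rfx3 passed the threshold, averaging 126 ± 16.3 CPM in APPko and 180 ± 29.8 CPM in wildtype (log2 change -0.52, edgeR adjusted p = 0.031, and 0.17 without wildtype replicates 2 and 3). The Rfx3 call was also lost without wildtype replicate 2 or 3 alone, or without APPko replicate 1, 2, 4, 5, 6 or 7 (edgeR adjusted p = 0.0539 to 0.0922). The part of granule cell content in the Syt4 values was not tested.

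Syt11, the close relative of Syt4 that acts in endocytosis and vesicle trafficking (ENSMUSG00000068923.14, chr3:88744700-88775164, minus strand), had the same sign with a smaller estimate. Its lowest, median and highest values were 501, 539 and 597 CPM in APPko, and 517, 605 and 764 CPM in wildtype. 3 wildtype libraries lay above all APPko libraries and 2 APPko libraries lay below all wildtype libraries. The log2 change was -0.20 (SE 0.10, 95% interval -0.42 to 0.02, edgeR adjusted p = 0.29), and it was negative in 27 of 27 other settings.

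Syt12, a member without calcium binding that is known for a role in long-term potentiation at mossy fibre synapses (ENSMUSG00000049303.10, chr19:4445908-4477447, minus strand), had the largest positive estimate of the 8. Lowest, median and highest values were 4.23, 5.73 and 11.6 CPM in APPko, and 3.04, 4.00 and 6.78 CPM in wildtype. 3 of the 8 APPko libraries were above every wildtype library and 3 of the 6 wildtype libraries were below every APPko library. The estimate was 1.51-fold higher in APPko (log2 change 0.60, SE 0.23, 95% interval 0.11 to 1.08), with an unadjusted edgeR p of 0.0183 and an adjusted edgeR p of 0.15, which misses the threshold. The log2 change stayed positive in 27 of 27 other settings, and was 0.39 with the GC trend removed and 0.53 without wildtype replicates 2 and 3.

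**Figure D3:**
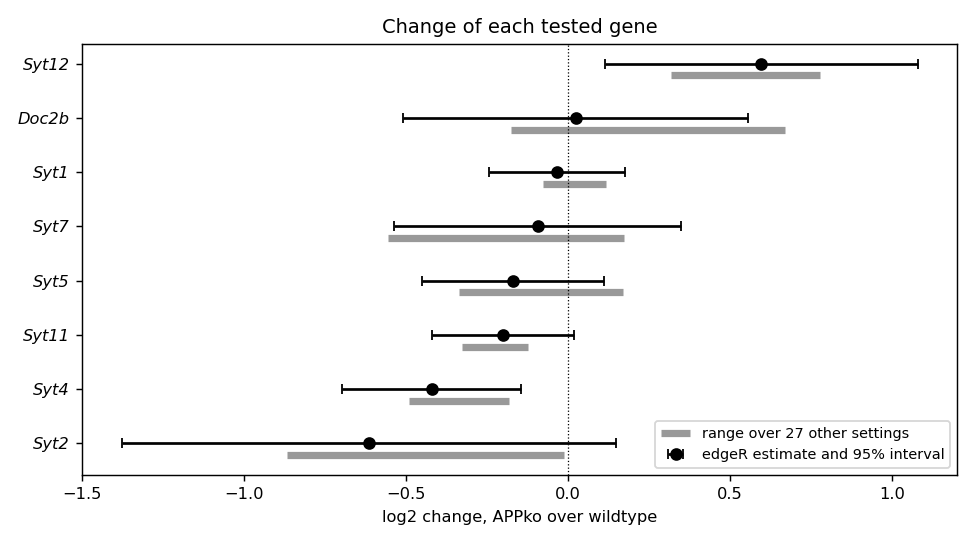
Log2 change (APPko over wildtype) of the 8 tested genes with its 95% interval from edgeR (black), and the range of the estimate over 27 other settings (grey). The unadjusted intervals of Syt12 and Syt4 lie on 1 side of 0, and those of the other 6 genes cross it.

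Wildtype libraries were more spread than APPko libraries for most of these genes, and for most genes in the table. The coefficient of variation was larger in wildtype for 7 of the 8 tested genes (87.5%), beside 78.7% of all 22150 tested genes. Without wildtype replicates 2 and 3 it was larger for 6 of the 8 (75%), beside 63.3% of all tested genes. Syt12 was the exception with all libraries kept, at 37.0% in APPko and 30.4% in wildtype. For Syt1 the coefficient was 4.39% in APPko and 14.6% in wildtype, and for Syt7 it was 17.5% in APPko and 47.3% in wildtype.

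Within wildtype, 1 of the 8 tested genes, Syt5, passed the threshold between header suffixes, and the m and f ranges of 2 of the 8, Syt5 and Doc2b, did not overlap, a pattern seen in 17.4% of all tested genes. Both were looked at after their values were seen. Wildtype replicates 2 and 3 are 2 of the 3 wildtype f libraries, so the suffix cannot be fully told apart from this pair. Doc2a, which was not tested, was at 0 in the 3 wildtype f libraries and at 0.110 to 0.270 CPM in the 3 m libraries, which is only 2 to 8 counts each. In APPko the m library had 1 Doc2a count and the f libraries had 0 to 15. Syt5 had 60.2, 66.2 and 70.6 CPM in the 3 wildtype m libraries and 33.3, 45.2 and 50.8 CPM in the 3 wildtype f libraries (log2 change m over f 0.61, edgeR adjusted p = 0.037, beside 3.39% of all tested genes past the threshold). In APPko the only m library had 46.6 CPM, inside the 44.4 to 56.3 CPM of the f libraries. The call within wildtype was lost in 7 of 9 other settings. These were the removal of the GC trend (log2 change 0.41, edgeR adjusted p = 0.11) or of the length trend (0.53, adjusted p = 0.058), leaving out replicates 2 and 3 together (0.53, adjusted p = 0.20), and leaving out replicate 2, 4, 5 or 6 alone (0.44 to 0.66, adjusted p = 0.0844 to 0.19).

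Doc2b did not pass the threshold. It had 12.9 to 14.2 CPM in the wildtype m libraries and 5.30 to 8.40 CPM in the wildtype f libraries (log2 change m over f 1.06, edgeR adjusted p = 0.070). The APPko m library had 8.85 CPM, inside the 5.57 to 14.6 CPM of the APPko f libraries. A difference of the APPko effect between suffixes was tested as an interaction, with 1 APPko m library on 1 side. Of the 8 genes, edgeR called 0 at the adjusted threshold and 2 at an unadjusted p under 0.05, beside 1.86% of all tested genes at the adjusted threshold and 21.4% at the unadjusted one. The 2 were Syt5 (edgeR adjusted p = 0.15) and Doc2b (edgeR adjusted p = 0.18).

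**Figure D4:**
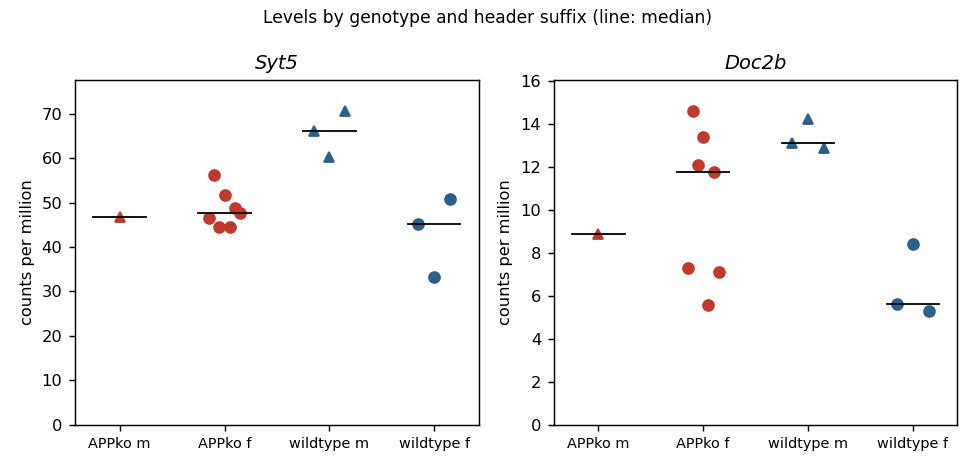
CPM of Syt5 and Doc2b by genotype and header suffix, 1 point per library with the median as a line (1 APPko m, 7 APPko f, 3 wildtype m and 3 wildtype f libraries). In wildtype every m library is above every f library for both genes, and the only APPko m library lies inside the range of the APPko f libraries.

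How the genes varied together was measured on log2 CPM centred within each genotype, over 14 libraries and 28 gene pairs. None of the 28 pairs passed a permutation test (100000 permutations within genotype) after adjustment. Syt4 and Syt7 had the lowest coefficient (Pearson r = -0.713, permutation p = 0.0208, adjusted p = 0.23; Spearman rho = -0.701, permutation p = 0.0208, adjusted p = 0.29). It was -0.818 without the 2 libraries farthest from the median of Syt4 (wildtype replicate 2 and APPko replicate 6). By genotype it was -0.196 in APPko and -0.899 in wildtype.

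Syt7 and Syt11 had the highest coefficient (Pearson r = 0.735, permutation p = 0.0295, adjusted p = 0.23; Spearman rho = 0.635, permutation p = 0.0669, adjusted p = 0.47). Without wildtype replicates 1 and 4, the farthest in Syt7, r was 0.461. Wildtype replicate 1 held the highest Syt7 and the highest Syt11 of all libraries and the lowest Syt1. Syt5 and Doc2b, whose wildtype ranges did not overlap between suffixes, had r = 0.568 (permutation p = 0.0636, adjusted p = 0.26) and rho = 0.767 (permutation p = 0.0102, adjusted p = 0.29), and r was 0.771 without wildtype replicates 2 and 6.

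**Figure D5:**
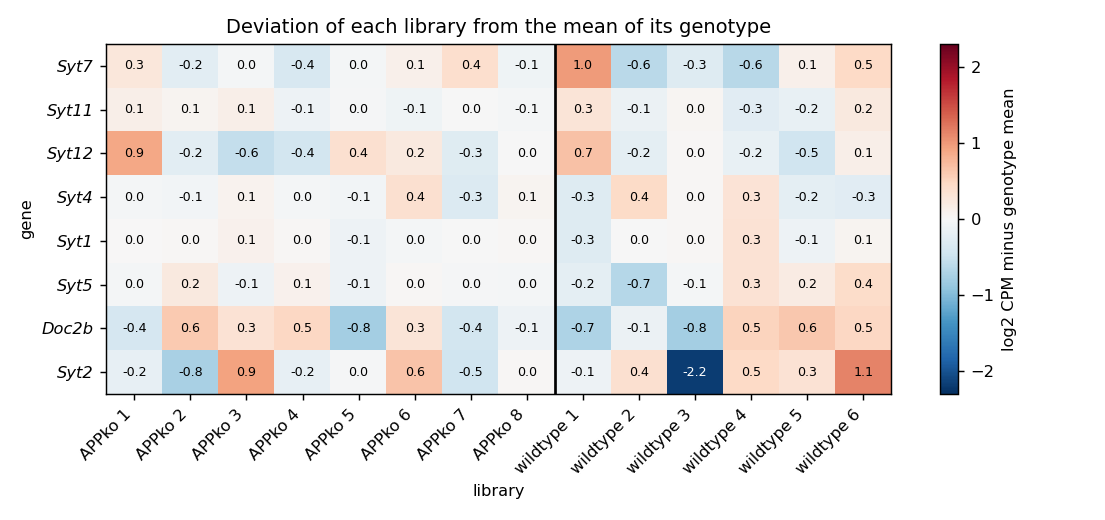
Deviation of log2 CPM from the mean of its own genotype, for the 8 tested genes (rows) and 14 libraries (columns, APPko left of wildtype), red above and blue below the mean. The largest deviation is that of Syt2 in wildtype replicate 3, and Syt7 is highest in wildtype replicate 1, where Syt1 and Syt4 are below their mean.

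The genes of the whole table most like each of the 8 tested members over the same 14 libraries are given as a description, among the protein-coding genes of at least 10 CPM (9244 genes, or 9245 for Syt2 and Syt12). Lsamp and Izumo4 were most like Syt1 (r = 0.886 and 0.857), Dlg1 and Hivep1 most like Syt2 (0.905 and 0.866), and Olfm3 and Snhg11 most like Syt4 (0.885 and 0.884). Evi5l and Atcay were most like Syt5 (0.967 and 0.952), Slc8a2 and Gatad2b most like Syt7 (0.968 and 0.957), and Got2 and Hras most like Syt11 (0.948 and 0.930). Rgs8 and Fem1b were most like Syt12 (0.922 and 0.921), and Atp2b4 and Kcnk9 most like Doc2b (0.911 and 0.905). The points include wildtype replicates 2 and 3, whose part in these coefficients was not tested.

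The other genes of release were taken as 4 lists of 49 genes in all. Of 17 other synaptotagmin-like C2 proteins 15 were tested, and 1 of them, Syt10, passed the threshold, beside 2.35% of all tested genes. Syt10, a calcium-binding synaptotagmin tied to growth factor secretion in olfactory bulb neurons, had 1.48, 2.84 and 3.73 CPM as lowest, median and highest value in APPko, and 2.69, 5.51 and 7.00 CPM in wildtype. 5 of the 6 wildtype libraries were above every APPko library. It fell by 1.03 on the log2 scale in APPko (2.60 ± 0.807 CPM in APPko and 5.30 ± 1.41 CPM in wildtype, SE 0.23, edgeR adjusted p = 0.030). The call held in 9 of 13 other settings. It was lost without wildtype replicates 2 and 3 (edgeR adjusted p = 0.11), and also without wildtype replicate 2 or 3 alone, or without APPko replicate 1, 2, 4, 5, 6 or 7 (edgeR adjusted p = 0.0519 to 0.0748). With each library left out in turn the log2 change was -1.15 to -0.93.

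The median log2 change of the 15 tested relatives was -0.0032, with 7 positive and 8 negative, and -0.14 without wildtype replicates 2 and 3. Syt16, a relative without calcium binding, had ranges that did not overlap, a pattern seen in 1.12% of all tested genes. It had 35.3 to 59.9 CPM in APPko and 61.1 to 94.6 CPM in wildtype (log2 change -0.47, edgeR adjusted p = 0.0521). That is just outside the threshold, and without wildtype replicates 2 and 3 its log2 change was -0.29 (edgeR adjusted p = 0.31).

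None of the other 3 lists held a gene past the threshold. The 7 priming factors, which make vesicles ready for the sensors, had a median log2 change of -0.05 (-0.07 without wildtype replicates 2 and 3). Cadps2 had the smallest p of them, with 18.7 CPM in APPko and 28.3 CPM in wildtype (log2 change -0.59, edgeR adjusted p = 0.078), and without wildtype replicates 2 and 3 its log2 change was -0.21 (edgeR adjusted p = 0.59). Rims2 had 77.1 CPM in APPko and 94.4 CPM in wildtype (log2 change -0.29, edgeR adjusted p = 0.10, and -0.31 without the 2 libraries).

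The 14 genes of the SNARE fusion machinery, on which the sensors act, had a median log2 change of 0.26, which was 0.07 without wildtype replicates 2 and 3. Among them Vamp1, a vesicle SNARE, had 23.7 CPM in APPko and 17.1 CPM in wildtype (log2 change 0.48, edgeR adjusted p = 0.089, and 0.36 without the 2 libraries). The 11 partners and retrieval genes had a median of 0.11, or 0.07 without the 2 libraries. Ap2s1 and Ap2a1, which encode clathrin adaptor subunits, had the smallest p of these 11 genes. Of the other adaptor subunits in the list, the log2 change was 0.40 for Ap2m1, 0.08 for Ap2a2 and 0.09 for Ap2b1. Ap2s1 had 170 CPM in APPko and 130 CPM in wildtype (log2 change 0.39, edgeR adjusted p = 0.10, and 0.31 without the 2 libraries). Ap2a1 had 12.2 CPM in APPko and 8.27 CPM in wildtype (log2 change 0.56, edgeR adjusted p = 0.13, and 0.32 without the 2 libraries).

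Marker lists were set beside these values. Summed pan-neuronal markers were 1157 to 1425 CPM in APPko and 1194 to 1831 CPM in wildtype, and summed interneuron markers were 945 to 1566 CPM in APPko and 955 to 2020 CPM in wildtype. Markers of the CA fields and mossy cells summed to 448 to 639 CPM in APPko and 361 to 996 CPM in wildtype. Among glial lists, astrocyte markers summed to 3522 to 5350 CPM in APPko and 3956 to 5267 CPM in wildtype, microglial markers to 146 to 250 CPM in APPko and 97.4 to 186 CPM in wildtype, and oligodendrocyte markers to 473 to 821 CPM in APPko and 439 to 1218 CPM in wildtype. The 5 microglial markers had a median log2 change of 0.07, with 3 positive and 2 negative. C1qa had the largest, with 70.3 CPM in APPko and 30.5 CPM in wildtype (log2 change 1.20, edgeR adjusted p = 0.11). Vascular and fibroblast markers summed to 43.0 to 73.9 CPM in APPko and 27.8 to 83.6 CPM in wildtype. No marker was at 0 in every library, and transcripts of neurons and of glia were present in each group. Prox1, which defines granule cells, averaged 151 CPM in APPko and 158 CPM in wildtype (log2 change -0.06). It was nearer to level than the granule cell list as a whole. The 7 markers of that list had a median log2 change of -0.25, with 6 negative and 1 positive.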

How the data were processed

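Polyadenylated RNA of 14 single dentate gyri was measured (8 APPko and 6 wildtype). Per the labels' protocols, cDNA was amplified over 12 cycles, 10 ng entered library preparation with 10 further cycles, and reads were 151 base pairs. The authors deposited raw counts, 1 row per gene symbol. Per the submitters' processing notes, reads were trimmed by cutadapt 3.5, aligned to mm10 (GRCm38) by STAR 2.7.8a and counted by featureCounts 2.0.1. How the counting handled strand, multiple matches and duplicates is not given in the sources used here. Of the symbols, 107 stand for several loci, none of them a gene described here. Positions and exon lengths come from the gene annotation deposited by the authors. Amplified reads without molecular identifiers are not independent molecules, and intervals on counts cover counting error only.

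Libraries were grouped by title. The 43 pairs of libraries within a genotype differed by more than sampling noise (chi-square per degree of freedom 7.76 to 94.1). The 22150 genes past edgeR's filter (filterByExpr with genotype as group) were scaled by TMM and compared by edgeR's quasi-likelihood test (robust, no covariate) with Benjamini-Hochberg adjustment at 0.05. RPKM values used TMM-scaled library sizes and union exon length. Log2 CPM used a prior count of 2. The software was edgeR 4.0.16, DESeq2 1.42.0 and limma 3.58.1 in R 4.3.3, and pandas 2.3.3 and matplotlib 3.10.9 in Python 3.11.15. The edgeR fit of the main comparison was tested on simulated data first. The other models and the permutation test were not.

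The genes described and the lists were chosen with earlier results of these data known. Named genes are the 9 genes, App, the called genes and the 2 with the smallest p of each release list, called markers, and for each of the 8 tested genes the 2 most correlated genes. Syt9, Syt13, Rph3a, Prox1, Pvalb, Calb1, C1qa, Ap2m1, Ap2a2, Ap2b1 and the suffix markers were named after their values were seen. Of the genes this rule names, 1 is not reported here. Alternatives were median-of-ratios and upper-quartile scaling, DESeq2, voom with quality weights, no filter, at least 1 CPM in 6 libraries, a replicate block, the suffix as covariate, f libraries alone, removal of wildtype replicates 2 and 3 or of each library, and a length trend. Chosen after seeing the data were the GC trend (transcripts of GENCODE M21, lowess span 0.3), the suffix interaction, the suffix as covariate without wildtype replicates 2 and 3, and the checks of Syt5 between suffixes.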

Additional observations from a re-analysis of the deposited data

Results flagged for a closer look

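None of the 9 genes had a library far from the rest of its genotype by Dixon's test, which was run on 38 groups of libraries. 3 groups did stand out, and chance alone flags about 1 group in 20. Syt10 was 2.69 CPM in wildtype replicate 1, below the next wildtype library at 5.42 CPM. Syt16 was 35.3 CPM in APPko replicate 5, below the next APPko library at 51.8 CPM. Vamp1 was 32.8 CPM in APPko replicate 1, above the next APPko library at 25.2 CPM. The APPko effect on Ap2a1 differed between m and f libraries by -1.38 on the log2 scale (edgeR interaction). It was -0.16 among m libraries, which include 1 APPko library, and 1.21 among f libraries. The suffix cannot be fully told apart from wildtype replicates 2 and 3, which are 2 of the 3 wildtype f libraries.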

How the results depend on the processing

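Of the 9 genes, 0 were called in the main test and 1 (Syt4) with DESeq2 (log2 change -0.43) and among f libraries alone (-0.49); with each library left out in turn the count was 0 to 0. No log2 change past the threshold turned its sign. Mean RPKM of the 9 genes moved by less than 1 SD in 189 of 189 recalculations. Most of these left out libraries, which at these group sizes cannot move a mean by 1 SD. Only the recalculations with another scaling could have failed. The number of genes called in the whole table was 521, against 1801 with DESeq2, 1446 with the suffix as a covariate, 3672 among f libraries, 35 without wildtype replicates 2 and 3 (76 with the suffix as a covariate), 319 with the length trend and 194 with the GC trend removed. It was 38 to 1436 with 1 library left out, lowest without APPko replicate 5 and highest without wildtype replicate 4. Called genes in the 4 release lists were 1 in the main test, 2 with median-of-ratios scaling and with the filter at 1 CPM, 8 with DESeq2 and with the suffix as a covariate, 11 among f libraries, 0 without wildtype replicates 2 and 3 with or without the suffix covariate, and 0 to 7 with 1 library left out. The cause of these shifts was not tested. The labels tie same-numbered libraries of the 2 genotypes by nothing but the number. Their deviations correlated at -0.34 to 0.19, above 0.1 in 3 of 6 pairs, and 3 of 6 libraries matched their own number best. Whether these libraries were handled in pairs is not known. With the replicate block, 21 genes were called in the table, 0 of the 9 genes and 0 of the release lists. Changes near 1.5-fold are often missed at this depth and number of cultures.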
